A study of Homo sapiens with 4 samples.

Results

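The genes described here encode the proteins of the mitochondrial ribosome, named MRPL for the large and MRPS for the small subunit. They were taken as the protein-coding rows of the count table whose symbol is MRPL or MRPS followed by a number and, for 3 paralogs, a letter. The rule found 78 of the 35606 genes in the table and used no measured value. Poly(A)-selected RNA was sequenced from K562, an established human cell line from a chronic myelogenous leukaemia that can express globins. There were 2 libraries labelled as JAZF1-SUZ12 and 2 labelled as mock, numbered 1 and 2 in each group. JAZF1-SUZ12 is a fusion oncoprotein known from endometrial stromal tumours, in which a piece of JAZF1 is attached to SUZ12, a component of the histone methyltransferase complex PRC2. The labels give no promoter, vector, clone, dose or time for its expression, and do not say whether libraries of a group came from separate cultures. The p-values below therefore measure only the spread between these libraries, which may be technical.

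The mitochondrial ribosome translates the few mRNAs encoded by mitochondrial DNA, which specify subunits of the respiratory chain and of ATP synthase. All of its proteins are encoded in the nucleus, made in the cytosol and imported through the TOM and TIM23 complexes. Some descend from proteins of bacterial ribosomes, whereas others are found only in mitochondrial ribosomes. Because each ribosome needs 1 set of proteins and rRNA made in different compartments, the genes are often described as a co-expressed housekeeping group, with promoters that hold sites for NRF1, for ETS-family factors such as GABPA, and for YY1.

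The libraries held 17261160 and 24423239 estimated counts for JAZF1-SUZ12 and 20444802 and 21296923 for mock. JAZF1 was at 33.3 and 29.5 CPM (counts scaled to library size) in the JAZF1-SUZ12 libraries and at 0.591 and 1.28 in mock, and SUZ12 at 276 and 265 against 137 and 133, which is the order the labels give. The source label names uterus. The 12 erythroid markers summed to 13788 and 13412 CPM in JAZF1-SUZ12 and 12054 and 11740 CPM in mock, with 5 called higher (HBZ, an embryonic globin, by 0.86 on the log2 scale, edgeR adjusted p = 2.47e-09) and 1 called lower. The 7 endometrial stromal markers summed to 62.3 and 62.1 CPM in JAZF1-SUZ12 and 31.3 and 30.7 CPM in mock, with LUM at 0 in every library. Among the stromal markers, COL1A1 and MME were called higher in JAZF1-SUZ12 (edgeR, adjusted p = 8.75e-08 and 7.38e-06). Their mean levels went from 5.83 to 21.2 CPM and from 19.6 to 33.2 CPM, which is most of the rise in the sum. LUM, COL3A1 and ESR1 were too low to be tested, and DCN and PGR were not called. Both marker sums thus moved with the groups, and their part in the results below was not tested.

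Promoter windows from RefSeq (GRCh38.p14, 250 bases before to 50 bases after the start) were found for 69 of the 78 genes. Those not matched were MRPL2, MRPL10, MRPL13, MRPL15, MRPL21, MRPL23, MRPL35, MRPS28 and MRPS36. The ETS motif CCGGAAG, on either strand, was present in 29 of the 69 windows (42.0%), against 10.7% of all 27305 promoter windows of that length. The YY1 motif AANATGGCG was present in 18 (26.1%, against 3.37%), and the NRF1 motif (GCGCA and GCGC with any 1 base between) in 8 (11.6%, against 6.28%). At least 1 of the 3 motifs was found in 47 windows (68.1%, against 17.9%). A match of letters is a description of the sequence and does not show that a factor binds there.

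To show what promoters with these motifs look like, the 150 bases before the start are given for 4 genes that were lower in JAZF1-SUZ12. The same is given for MRPL30, which was among the least changed. All of these hold a motif, whereas 47 of the 69 full windows did. Capitals mark motif matches that lie wholly in these bases, so an ETS motif of MRPL52 that crosses the start is not marked. MRPL47 (chr3:179604639-179604788, minus strand) and MRPL20 (chr1:1407294-1407443, minus strand) hold 1 and 2 ETS motifs, MRPS22 (chr3:139343844-139343993, plus strand) holds 2 on opposite strands, MRPL52 (chr14:22829737-22829886, plus strand) holds 2 YY1 motifs, and MRPL30 (chr2:99181034-99181183, plus strand) holds an ETS and an NRF1 motif.
MRPL47: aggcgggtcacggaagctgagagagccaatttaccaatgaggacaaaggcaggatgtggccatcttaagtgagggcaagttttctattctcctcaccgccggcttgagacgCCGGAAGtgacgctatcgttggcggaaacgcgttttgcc
MRPL20: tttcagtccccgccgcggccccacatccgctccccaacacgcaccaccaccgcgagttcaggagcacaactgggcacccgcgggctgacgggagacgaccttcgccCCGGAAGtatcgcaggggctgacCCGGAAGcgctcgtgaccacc
MRPS22: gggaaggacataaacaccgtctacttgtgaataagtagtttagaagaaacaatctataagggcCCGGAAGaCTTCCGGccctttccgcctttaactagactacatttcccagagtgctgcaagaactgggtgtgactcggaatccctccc
MRPL52: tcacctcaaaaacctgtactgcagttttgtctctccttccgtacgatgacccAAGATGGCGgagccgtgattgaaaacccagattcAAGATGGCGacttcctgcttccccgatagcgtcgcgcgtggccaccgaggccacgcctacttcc
MRPL30: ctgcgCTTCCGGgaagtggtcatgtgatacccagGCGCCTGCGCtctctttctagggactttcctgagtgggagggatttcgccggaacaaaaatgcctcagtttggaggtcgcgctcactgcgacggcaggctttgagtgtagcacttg

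Of the mitochondrial ribosomal protein genes, 23 were called lower in JAZF1-SUZ12 than in mock cells, each by a small amount, 55 were not called and none was called higher. A gene is called here at a Benjamini-Hochberg adjusted p under 0.05 over all 14750 genes tested with edgeR's quasi-likelihood test. All 78 genes passed the filter on low counts, with between 293 and 4016 counts in a library. The 23 called lower are 29.5% of them, against 11.4% of all genes tested, and the 0 called higher stand against 13.3%. At an unadjusted p under 0.05, 41 were lower (against 17.6% of all genes tested and 27.6% in the count range of the 78 genes) and 0 higher (18.4% and 13.4%). Neither DESeq2 (background 9.19%) nor limma-voom (13.3%) called any of them higher. The fold changes of the called genes lay between -21.9% and -10.4%. In bulk RNA, fewer cells expressing a gene and less of its RNA per cell cannot be told apart.

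Since these genes are well expressed, they were also set beside the 6858 tested genes whose mean count lay in the same range, from 394.2 to 3475 counts. Of those genes 18.0% were called lower and 9.61% higher, and their median log2 fold change was -0.05. The median of the 78 genes was -0.14, against 0.0032 for all genes tested. A log2 fold change under 0 was found for 69 of the 78 genes (88.5%), against 63.7% of the genes in that range and 49.5% of all genes tested. Genes of similar abundance thus also had a median under 0, and the difference between the 2 sets was not tested.

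**Figure D1:**
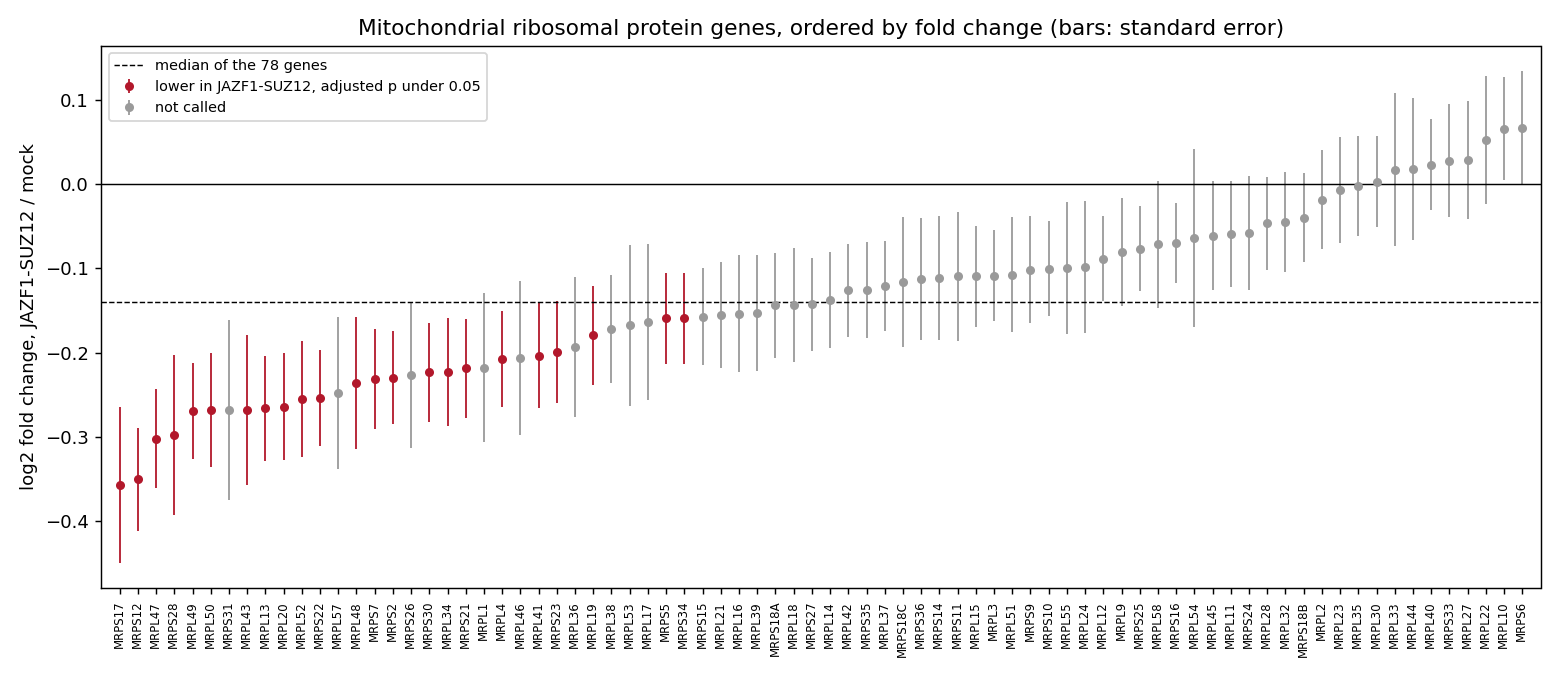
Log2 fold change (JAZF1-SUZ12 over mock) for each of the 78 genes, ordered from the lowest to the highest, with the standard error as a bar. Red points are the 23 genes called lower, grey points are not called, and the dashed line is the median of -0.14. Points lie below 0 for 69 genes.

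The decrease was seen in each JAZF1-SUZ12 library, and it was larger in replicate 2. The CPM of the 78 genes summed to 5185 and 4963 in JAZF1-SUZ12 and to 5607 and 5473 in mock, so the groups did not overlap. The summed level fell by 8.41%. The 6858 tested genes in the same count range summed to 413910 and 408230 CPM in JAZF1-SUZ12 and to 424250 and 423940 in mock. Their groups did not overlap either, and the difference between the 2 sets was not tested. Relative to each gene's mean in mock, the median gene was at -0.096 (log2) in JAZF1-SUZ12 replicate 1 and at -0.17 in replicate 2, against 0.021 and -0.021 in the mock libraries. JAZF1-SUZ12 replicate 1 was below both mock libraries for 54 genes and replicate 2 for 69. Shares of all genes were not counted for single libraries, so these counts do not show a trait of the 78 genes. Both JAZF1-SUZ12 libraries lay below both mock libraries for 52 of 78 genes. That was found for 30.3% of all genes tested and 43.3% of genes in the same count range. MRPL40 was the 1 gene with both JAZF1-SUZ12 libraries above both mock libraries, at 98.3 and 98.5 against 96.9 and 96.8 CPM, and it was not called. That arrangement was found for 31.0% of all genes tested and 21.4% of genes in the count range.

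**Figure D2:**
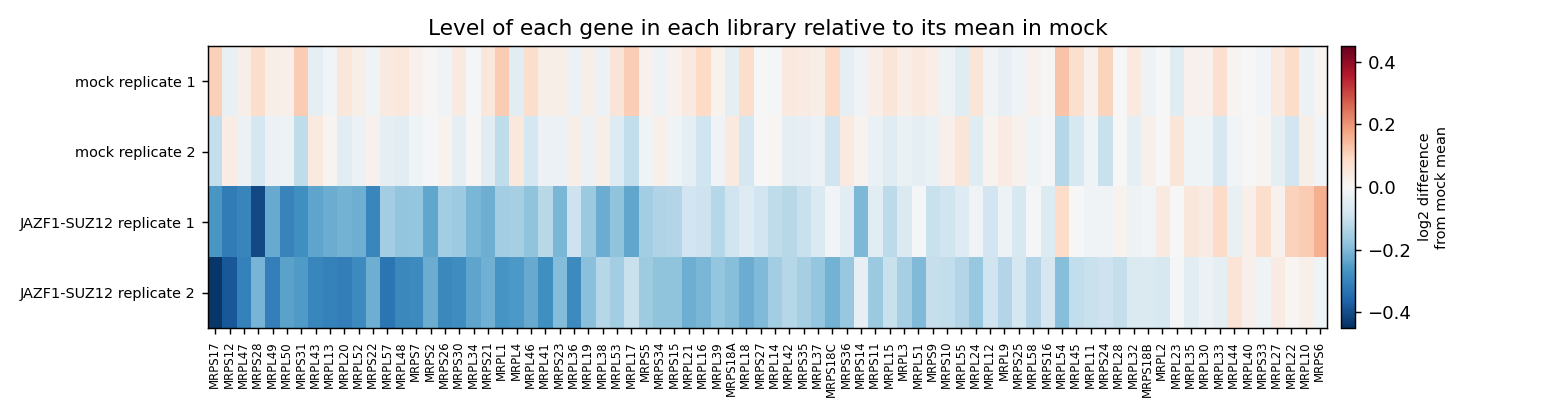
Log2 difference of each gene in each library from its mean in the 2 mock libraries, with genes in the order of their fold change and blue for lower levels. Both JAZF1-SUZ12 libraries are blue over most of the 78 genes, and replicate 2, with a median of -0.17, is deeper than replicate 1.

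The number of calls depended on single libraries. Without JAZF1-SUZ12 replicate 2 there were 10 calls lower (against 7.08% of all genes tested) and without mock replicate 1 there were 12 (7.61%), whereas without JAZF1-SUZ12 replicate 1 there were 32 (12.6%) and without mock replicate 2 there were 25 (9.31%). Calls higher numbered 0 in each, with backgrounds of 9.91% and 9.76% for the first 2 of these and 10.9% for the last, and 1841 of 15399 genes called higher without JAZF1-SUZ12 replicate 1. In these fits the lone library of a group is assumed to vary like the others. DESeq2 called 12 genes lower (7.13%), all among the 23. Scaling by total counts gave 17 (9.16%), and testing without a filter gave 26 lower (8.68%) and 0 higher (9.17%). All backgrounds in this paragraph are shares of all genes tested. Shares among genes of the same count range were not counted for any alternative. In the fit reported, 18.0% of genes in that range were called lower, against 11.4% of all genes tested. The counts under the alternatives therefore do not show an excess over genes of similar abundance. MRPL13, MRPL20, MRPL47, MRPL49, MRPS2, MRPS12 and MRPS22 were called under each of the 13 alternatives, leaving out any library included.

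Of the small-subunit genes, MRPS12 had the smallest p-value of the group. It encodes the homolog of bacterial S12, a protein of the decoding centre. MRPS12 (ENSG00000128626; GRCh38 chromosome 19, 38930548 to 38933162, plus strand) was at 72.0 and 75.2 CPM in mock and at 59.2 and 56.5 CPM in JAZF1-SUZ12 libraries. Both JAZF1-SUZ12 values were below both mock values. On the log2 scale MRPS12 fell by 0.35 (standard error 0.06, edgeR adjusted p = 0.000593), and under the 13 alternatives its adjusted p lay between 1.24e-07 and 0.00261. MRPS17, the homolog of bacterial S17 (chromosome 7, 55951819 to 55956501), had the largest decrease, from 34.6 and 29.8 CPM in mock to 26.8 and 23.7 CPM (log2 fold change -0.36, standard error 0.09, adjusted p = 0.0105). The groups did not overlap, but the mock libraries were far apart. Without JAZF1-SUZ12 replicate 2 or without mock replicate 1 the call of MRPS17 was lost (adjusted p = 0.078 and 0.104).

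MRPS22, a small-subunit protein found only in mitochondria, was at 93.1 and 95.4 CPM in mock and at 76.9 and 80.8 CPM in JAZF1-SUZ12 libraries. Its log2 fold change was -0.25 (standard error 0.06, adjusted p = 0.00395). MRPS2, the homolog of bacterial S2 and chosen after its values were seen, was at 92.0 and 91.3 against 77.8 and 78.4 CPM (log2 fold change -0.23, adjusted p = 0.00659). In both genes the gap between groups was several times the gap between libraries of a group. MRPS28 was less stable: it was at 29.3 and 26.2 CPM in mock and at 20.9 and 23.95 CPM in JAZF1-SUZ12 (log2 fold change -0.30, adjusted p = 0.0310). Its call was lost without JAZF1-SUZ12 replicate 1 (adjusted p = 0.149), without mock replicate 1 (0.184) and with DESeq2 (0.135).

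Among the large-subunit genes, MRPL47 changed most. It encodes the homolog of bacterial L29, which lies by the exit of the peptide tunnel. MRPL47 (ENSG00000136522; chromosome 3, 179588285 to 179604654, minus strand) was at 77.4 and 74.8 CPM in mock and at 61.8 and 61.5 CPM in JAZF1-SUZ12 libraries, with no overlap. On the log2 scale MRPL47 fell by 0.30 (standard error 0.06, edgeR adjusted p = 0.00142). MRPL49, found only in mitochondrial ribosomes (chromosome 11, 65122183 to 65127371), was at 102 and 98.7 CPM in mock and at 85.8 and 81.0 CPM in JAZF1-SUZ12 (log2 fold change -0.27, adjusted p = 0.00269). MRPL13, the homolog of bacterial L13, was at 64.9 and 65.9 CPM in mock and at 56.0 and 52.9 CPM in JAZF1-SUZ12 (log2 fold change -0.27, adjusted p = 0.00526). These 3 genes had every mock value above every JAZF1-SUZ12 value, as was true of all 23 called genes.

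MRPL50 and MRPL43, both found only in mitochondrial ribosomes, completed the 8 called genes with the largest decreases. MRPL50 went from 48.1 and 46.7 to 38.5 and 40.1 CPM (log2 fold change -0.27, adjusted p = 0.00863), and its adjusted p was 0.052 with DESeq2. MRPL43 went from 24.9 and 26.5 to 21.8 and 21.0 CPM (log2 fold change -0.27, adjusted p = 0.0379). The call of MRPL43 was lost with DESeq2 (0.193), without JAZF1-SUZ12 replicate 2 (0.176) and without mock replicate 2 (0.15). The remaining 15 called genes had log2 fold changes from -0.26 to -0.16 and adjusted p-values from 0.00395 to 0.0417: MRPL20, MRPL52, MRPS22, MRPL48, MRPS7, MRPS2, MRPS30, MRPL34, MRPS21, MRPL4, MRPL41, MRPS23, MRPL19, MRPS5 and MRPS34. Of these 15, only MRPL20, MRPS2 and MRPS22 were called under every one of the 13 alternatives. MRPL41 changed by -0.20, and by -0.13 without JAZF1-SUZ12 replicate 2 (adjusted p = 0.274), and it was also not called without mock replicate 1 (0.102) or with DESeq2 (0.0692).

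**Figure D3:**
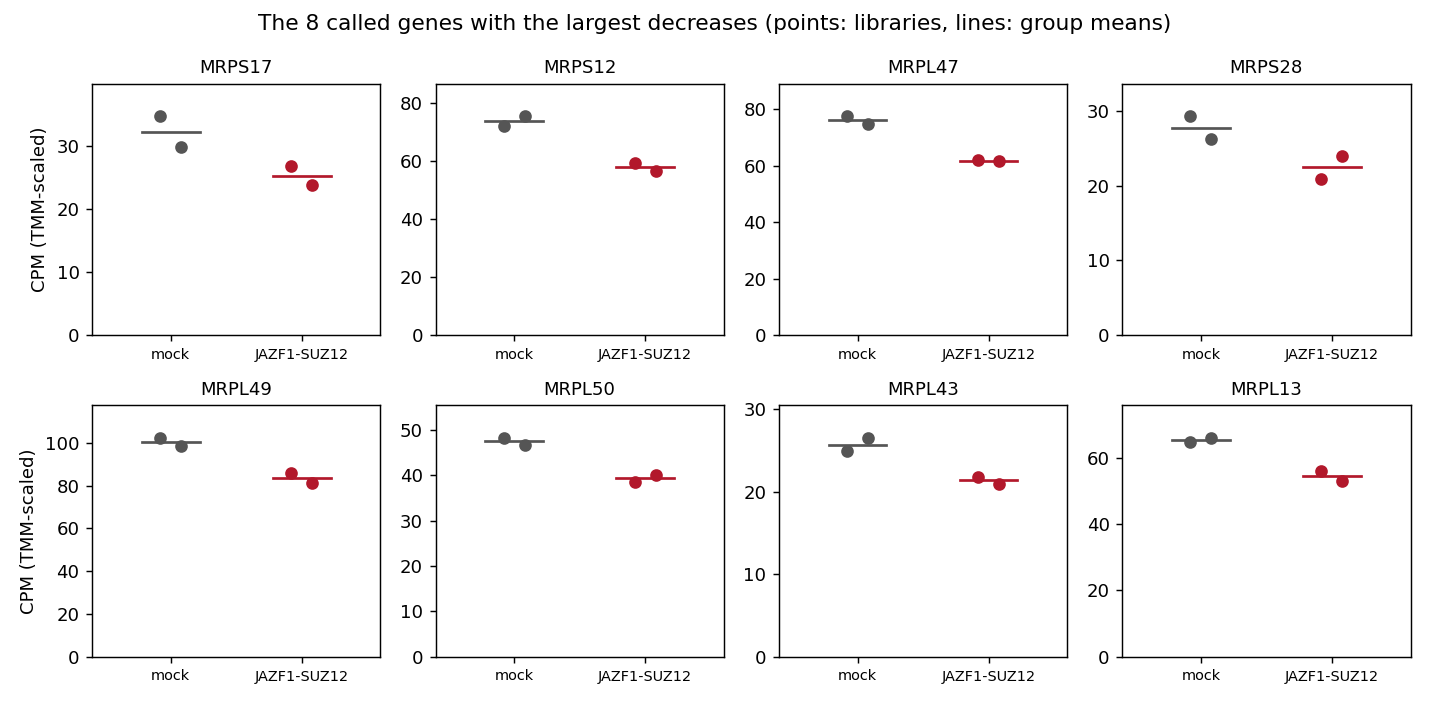
TMM-scaled CPM in each library for the 8 called genes with the largest decreases, with axes that start at 0. Points are libraries (replicate 1 left, replicate 2 right) and lines are group means of 2 libraries. In each gene both JAZF1-SUZ12 points lie below both mock points, as for MRPS12 at 59.2 and 56.5 against 72.0 and 75.2 CPM.

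Calls lower were found in both subunits. Of 26 small-subunit genes, 10 were called lower (38.5%) and the median log2 fold change was -0.15. Of 51 large-subunit genes, 13 were called lower (25.5%) with a median of -0.14. These shares stand beside 11.4% of all genes tested and 18.0% of genes in the count range of the 78 genes. MRPS18A and MRPS30 were counted with the large subunit, where their proteins reside. By origin, 12 of 44 genes with a bacterial homolog were called lower (27.3%, median -0.11). So were 10 of 31 genes classed as found only in mitochondria (32.3%, median -0.16), with 3 genes not classed. That class holds MRPS18A and MRPS18B, though their paralog MRPS18C was classed with a bacterial homolog, so the split by origin is approximate. Of the 29 large-subunit genes with a bacterial homolog, 6 were called lower (20.7%), near the 18.0% above. The other combinations of subunit and origin had between 30.0% and 40.0%. The differences between these classes were not tested.

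Of the 5 most abundant members per length, 1 was called. Per kb of principal transcript, the highest mean levels were those of MRPL12, MRPS24, MRPL28, MRPL21 and MRPS34, at 130.04, 115, 112, 111 and 101 CPM per kb, against a median of 48.8 over the 78 genes. MRPL12, which forms the flexible stalk that recruits translation factors, was at 136 and 139 CPM in mock and at 130 and 129 CPM in JAZF1-SUZ12 (log2 fold change -0.09, adjusted p = 0.221). MRPS34 was the gene called (log2 fold change -0.16, adjusted p = 0.0417), and DESeq2 and each fit without JAZF1-SUZ12 replicate 2, mock replicate 1 or mock replicate 2 did not call it (adjusted p = 0.113, 0.191, 0.0682 and 0.153). MRPS24, MRPL28 and MRPL21 had log2 fold changes of -0.06, -0.05 and -0.16 and were not called, so MRPL21 changed by about as much as MRPS34. MRPL21 passed without JAZF1-SUZ12 replicate 1 (adjusted p = 0.0161).

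The 5 genes with the smallest changes were MRPL35, MRPL30, MRPL23, MRPL33 and MRPL44, with log2 fold changes between -0.0075 and 0.018. MRPL30, the homolog of bacterial L30, was at 113 and 111 CPM in mock and at 115 and 110 CPM in JAZF1-SUZ12 libraries. Its groups overlapped, and the standard error of 0.05 was as small as that of the called genes. Highest of the 78 was MRPS6, at 60.9 and 59.9 CPM in mock and at 67.5 and 59.6 CPM in JAZF1-SUZ12 (log2 fold change 0.07, adjusted p = 0.521, and under 0 without JAZF1-SUZ12 replicate 1), chosen after its values were seen.

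The 3 paralogs MRPS18A, MRPS18B and MRPS18C occupy different places in the ribosome, the first in the large subunit and the others in the small subunit. MRPS18A was at 71.0 and 75.4 CPM in mock and at 68.7 and 64.1 CPM in JAZF1-SUZ12 (log2 fold change -0.14, adjusted p = 0.108). MRPS18C was at 64.96 and 57.3 against 60.6 and 52.7 CPM (-0.12, adjusted p = 0.302). MRPS18B was at 115 and 119 against 116 and 112 CPM (-0.04, adjusted p = 0.639). None was called with all libraries, and MRPS18A and MRPS18C passed without JAZF1-SUZ12 replicate 1 (adjusted p = 0.0451 and 0.0346). MRPL58, which releases peptides from stalled ribosomes, and MRPS36, which is a component of the 2-oxoglutarate dehydrogenase complex despite its name, had log2 fold changes of -0.07 and -0.11 and were not called. Leaving MRPS36 out, 23 of 77 genes were called lower.

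The genes lie on 21 chromosomes. For 29 of the 78 (37.2%), the gene model in GENCODE 29 begins within 1000 bases of that of a protein-coding neighbour on the other strand. This was the case for 16.9% of all protein-coding genes tested. The outermost start of each gene model was used, which can lie far from the promoter window. For MRPS22 it is at 139005806, while its window is at 139343844-139343993, and MRPL11 is a similar case. Not every such pair therefore shares a start region. Of 25 tested neighbours outside the group, 6 were called lower and 2 higher (against 12.2% and 13.7% of all protein-coding genes in the test), and their median log2 fold change was -0.011. Some neighbours moved with the ribosomal gene. TWNK, the mitochondrial DNA helicase opposite MRPL43, fell by 0.45 on the log2 scale (adjusted p = 0.0003), and FAU, opposite MRPL49, fell by 0.15 (adjusted p = 0.0291). Others were not called beside a gene that fell: SARS2, opposite MRPS12, was at -0.01 (adjusted p = 0.925), and NDUFB5, opposite MRPL47, at 0.14 (adjusted p = 0.069). The gene models of MRPL43, MRPL49 and MRPS12 overlap those of these neighbours at their 5' ends, so their values are less certain, and use of strand in counting is not given in the sources used here.

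The motifs were also counted by call. Of the 21 called genes with a promoter window, 10 held the ETS motif, 3 the YY1 motif and 0 the NRF1 motif, and of the 48 genes not called these numbers were 19, 15 and 8. The differences were not tested. Among transcription factors linked to these promoters, YY1 and the coactivator PPRC1 were called lower. YY1 was at 146 and 156 CPM in mock and at 132 and 124 CPM in JAZF1-SUZ12 (log2 fold change -0.24, adjusted p = 0.00434). PPRC1 was at 55.8 and 53.6 against 44.2 and 43.4 CPM (-0.32, adjusted p = 0.00192). NRF1 had a log2 fold change of -0.22 and was not called (adjusted p = 0.0822), GABPA was at -0.0089 (adjusted p = 0.936), and PPARGC1A had 0 counts in every library.

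The 5 ribosomal proteins that carry other names all had log2 fold changes under 0, and 2 were called lower. GADD45GIP1, a large-subunit protein, was at 85.3 and 87.3 CPM in mock and at 73.4 and 65.8 CPM in JAZF1-SUZ12 (log2 fold change -0.31, adjusted p = 0.00179). AURKAIP1, of the small subunit, changed by -0.18 (adjusted p = 0.0180), and its call was lost without JAZF1-SUZ12 replicate 2 (0.142) and without mock replicate 2 (0.07). DAP3, CHCHD1 and PTCD3 were at -0.15, -0.15 and -0.10 and were not called (adjusted p = 0.0516, 0.131 and 0.177). DAP3 lay near the threshold, and passed with limma-voom (0.0357), DESeq2 size factors (0.0472), no filter (0.0132) and without JAZF1-SUZ12 replicate 1 (0.00163). CHCHD1 was at -0.25 and passed without mock replicate 2 (0.0302).

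Around the ribosome, 8 lists of nuclear and mitochondrial genes for mitochondrial gene expression gave 45 calls among 125 genes tested (36.0%), all lower, against 11.4% of all genes tested and 18.0% in the count range of the 78 genes. The share called lower was 55.0% in protein import, 52.6% in mtDNA expression, 44.0% in assembly and 40.0% in the 5 other-named ribosomal proteins. It was 23.1% in the mtDNA-encoded mRNAs, 22.2% in the transcription factors, 21.4% in the translation factors and 15.0% in the tRNA enzymes. These last 4 lists, each with 2 or 3 calls, lay near the share in that range. The mtDNA-encoded mRNAs, however, have counts above that range. By edgeR 0 were called higher, 2 were higher at an unadjusted p under 0.05, DESeq2 called 0 and limma-voom 1. Assembly factors had 11 of 25 called lower (median log2 fold change -0.18), with RCC1L, the rRNA methyltransferase MRM2 and the pseudouridine synthase TRUB2 at -0.22, -0.30 and -0.26 (adjusted p = 0.00455, 0.00504 and 0.0066). With DESeq2 the assembly list had 4 calls, against 7.13% of all genes tested called lower. The share in the count range was not counted with DESeq2. Its calls also became fewer without mock replicate 1 and without JAZF1-SUZ12 replicate 2, where MRM2 and TRUB2 were not called. Factors that copy, transcribe or process mitochondrial DNA and RNA had 10 of 19 called lower (median -0.17). TRMT10C, a subunit of mitochondrial RNase P, went from 57.6 and 55.8 to 41.3 and 40.7 CPM (log2 fold change -0.47, adjusted p = 7.6e-05). TFB2M, needed to start transcription, went from 68.0 and 66.7 to 52.0 and 49.6 CPM (-0.41, adjusted p = 0.000174). Both changed by more than any of the 78 ribosomal genes.

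Of 14 translation factors, 3 were called lower (median -0.08). GFM1, the elongation factor that moves the ribosome along the mRNA, went from 119 and 111 to 87.9 and 82.1 CPM (log2 fold change -0.44, adjusted p = 6.65e-05). TUFM and TSFM changed by -0.18 and -0.29 (adjusted p = 0.00738 and 0.0134), and TSFM was not called without JAZF1-SUZ12 replicate 2 (0.0938), without mock replicate 1 (0.128) or with DESeq2 (0.0654). Of the enzymes that charge mitochondrial tRNAs, 3 of 20 were called lower, 6 had values above 0, and the median was -0.03. MARS2, CARS2 and LARS2 were at -0.50, -0.33 and -0.17 (adjusted p = 0.00533, 0.00788 and 0.0384). LARS2 was not called without JAZF1-SUZ12 replicate 2 (0.248), mock replicate 1 (0.108) or mock replicate 2 (0.0828), and with DESeq2 neither LARS2 (0.13) nor CARS2 (0.0583) was called.

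Protein import had 11 of 20 genes called lower (median -0.17). TOMM40, the channel of the outer membrane through which these proteins enter, went from 241 and 251 to 206 and 192 CPM (log2 fold change -0.31, adjusted p = 0.000337). TIMM50 and TOMM5 changed by -0.21 and -0.23 (adjusted p = 0.00744 and 0.00878), and TOMM5 was not called without mock replicate 1 (0.0922). Calls in the import list numbered 7 with DESeq2, which called 7.13% of all genes tested lower (share in the count range not counted). They were fewer still without JAZF1-SUZ12 replicate 2 or without mock replicate 1.

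The 13 mRNAs that the mitochondrial ribosome translates did not move in 1 direction. They had a median log2 fold change of -0.03, with 7 under 0, and summed to 52836 and 50369 CPM in JAZF1-SUZ12 and 48616 and 54400 CPM in mock, so the groups overlapped. MT-ND3, MT-ND1 and MT-ND2, subunits of complex I, were called lower (log2 fold change -0.19, -0.23 and -0.15, adjusted p = 0.00513, 0.00578 and 0.0318). The mock libraries differed in this list: without mock replicate 2, MT-ND1 and MT-ND2 were at -0.13 and -0.08 and were not called (0.0569 and 0.259), and with DESeq2 neither was called (0.164 and 0.252). Calls in this list shifted towards higher without mock replicate 2, and more were lower without mock replicate 1 or without JAZF1-SUZ12 replicate 1. MT-CO2, a subunit of cytochrome c oxidase, was at 5252 and 5539 CPM in mock and at 6023 and 5614 CPM in JAZF1-SUZ12 (log2 fold change 0.11, adjusted p = 0.0734), chosen after its values were seen.

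**Figure D4:**
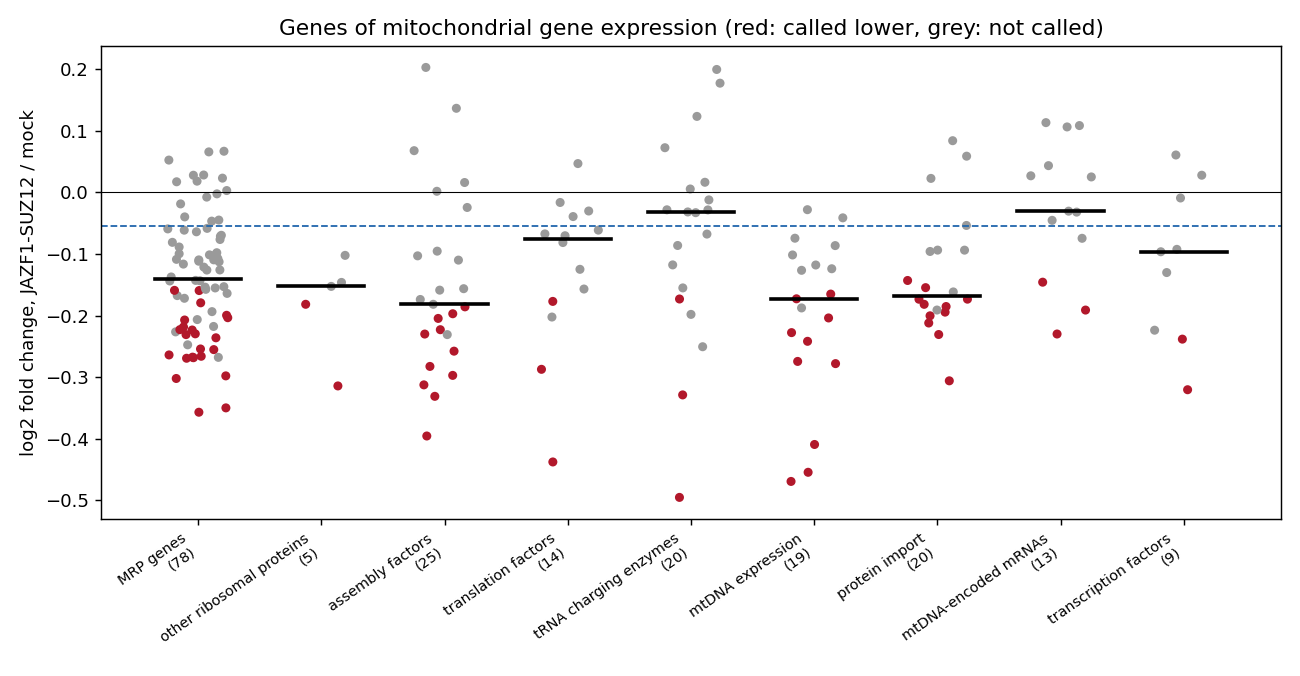
Log2 fold change of every tested gene in the 78 ribosomal protein genes (MRP genes) and in 8 lists for mitochondrial gene expression, with the number tested under each name. Red points are called lower, grey points are not called, black bars are medians, and the dashed line is the median of -0.05 for tested genes with a mean count in the range of the 78 genes. The medians of the import, mtDNA expression and assembly lists lie near that of the ribosomal proteins, and those of the tRNA enzymes and mtDNA-encoded mRNAs lie closer to 0.

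The authors' deposited table of the same libraries held all 78 genes with an adjusted p. In the authors' deposited table, a log2 fold change under 0 was listed for 71 of the 78, with a median of -0.15. There 3 were called lower (against 3.57% of all genes with an adjusted p) and 0 higher (4.93%). The share of the 78 genes called lower was thus near that of all genes. The 3 genes in the authors' deposited table were MRPS12, MRPS17 and MRPS30 (log2 fold change -0.36, -0.55 and -0.28, adjusted p = 0.0184, 0.0338 and 0.0427), which were also called here.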

How the data were processed

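Poly(A)-selected directional libraries of K562 cells were prepared, per the labels' protocols. The submitters' processing notes name fastp 0.20.1, kallisto 0.46.2, DESeq2 1.30.1 and hg38, and the annotation is not given in the sources used here. The authors deposited estimated counts per gene, not normalized, which were rounded to whole numbers because the design had assumed counts. The authors' deposited table of their own comparison holds, per the file headers, a mean normalized signal, a log2 fold change with its standard error, a test score, and a p-value and adjusted p-value per gene. Columns were matched to samples through their titles. No row stood for unassigned reads.

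Genes were kept with filterByExpr (14750 of 35606), libraries were scaled with TMM, and the groups were compared with edgeR 4.0.16 in R 4.3.3 (quasi-likelihood test, group as the only term, two-sided, 0.05 as threshold after Benjamini-Hochberg adjustment over all genes tested). Standard errors were derived from the fold change and the F statistic. CPM here means rounded counts over the TMM-scaled library size. Levels per kb use the median length of the principal coding transcripts in GENCODE 29, which with GC content was found for 99.4% of genes. The fits that used all libraries were also run on simulated data. Libraries of a group differed by more than sampling noise (chi-square per degree of freedom 3.79 and 3.5), and 2 libraries a group limit every estimate.

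Alternatives were DESeq2 1.42.0, limma-voom (limma 3.58.1), DESeq2 size factors or total counts, filtering not at all or at a mean of 50 counts, GC and length offsets, the replicate number as a block, a threshold of 0.01 and leaving out each library. The members, the lists and the tests were chosen with earlier results of these data known. The genes described singly are, by rule, the 8 largest called changes and 4 smallest p-values in each direction, the 5 highest per kb, the 5 smallest changes, the MRPS18 paralogs, MRPL58 and MRPS36, the 3 smallest p-values of each list and the 5 other-named ribosomal proteins. Other called members are named in counts. MRPL40, MRPL41, MRPS2, MRPS6, MRPS31, MT-CO2, the marker genes and the neighbours named were chosen after their values were seen, and GABPA and PPARGC1A for their known link to these promoters.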

Additional observations from a re-analysis of the deposited data

How the results depend on the processing

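The 23 ribosomal protein genes called lower became 12 with DESeq2 and 9 at an adjusted p under 0.01, and between 10 and 32 when 1 library was left out. The lowest counts, 10 and 12, came without JAZF1-SUZ12 replicate 2 and without mock replicate 1, and 10, 12, 19 and 20 of the 23 were still called without JAZF1-SUZ12 replicate 2, mock replicate 1, mock replicate 2 and JAZF1-SUZ12 replicate 1. The cause was not tested. The other alternatives with all libraries gave from 17 (total counts only) to 30. The share of all genes called at the 0.01 threshold was not counted. The 9 calls, and the 22 given below for the mitochondrial lists, therefore have no background beside them. Of the 23 genes, 12 were called under all 9 alternatives with all libraries. No gene of the 78 was called higher under any alternative run, and none of the 23 changed sign. The median of the 78 genes ranged from -0.149 to -0.116 with all libraries, and from -0.178 to -0.0981 when 1 was left out. The number of genes under 0 ranged from 65 to 73.

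With the replicate number as a block, 28 were called, against 13.5% of all genes tested called lower. With the GC and length offsets as well there were 30 (15.2%), and the offsets alone gave 24 (12.3%). The share of all genes was 11.4% in the fit reported, so calls lower also became more frequent among all genes. Shares among genes of the same count range were not counted for these fits. An excess over genes of similar abundance is therefore not shown by them. Deviations of same-numbered libraries had a correlation of -0.00072, so the numbers were not taken to pair the samples. The block also gave calls of MRPL21 (adjusted p = 0.0485, and 0.0277 with the offsets) and DAP3 (0.021 and 0.0277).

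Calls lower in the mitochondrial lists went from 45 to 27 with DESeq2 and 22 at 0.01, and ranged from 24 to 48 with 1 library left out, the lowest without JAZF1-SUZ12 replicate 2. Calls higher in them, 0 in the fit reported, were 2 with total counts, with no filter, with a mean of at least 50 counts and with the block, 1 with limma-voom and with the offsets, 3 with the offsets and the block, and between 0 and 4 with 1 library left out. These calls were all among the mRNAs encoded by mitochondrial DNA. The cause was not tested.

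Over all 78 genes and all alternatives, 14 genes changed sign, none of them called, with values between -0.0652 and 0.0769. With all libraries these were MRPL2, MRPL23, MRPL30 and MRPL35. MRPL2 was at 0.00334 with total counts and 0.00525 with a mean of at least 50 counts. MRPL35 was at 0.0197 with total counts, 0.0216 with a mean of at least 50 counts, 0.0194 with the offsets and 0.0204 with the offsets and the replicate block. MRPL23 was at 0.015 with total counts and 0.0166 with a mean of at least 50 counts, and MRPL30 at -0.00573 with no filter. With 1 library left out, of those described singly, MRPL35 ranged from -0.0544 to 0.0486, MRPL23 from -0.0691 to 0.0366, MRPL30 from -0.0316 to 0.035, MRPL33 from -0.0652 to 0.0847, MRPL44 from -0.0332 to 0.0565, MRPL28 from -0.11 to 0.0149 and MRPS24 from -0.168 to 0.037. Standard errors of the 78 genes, from 0.0478 to 0.107, limit which changes could be called.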

Other observations

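The table lists 79 rows named as pseudogenes of these genes, and for 3 genes their summed counts exceeded 1% of the gene's own: MRPS31 (39.2%), MRPL45 (4.36%) and MRPS17 (3.31%). Estimated counts can be divided between such copies, so the values of these 3 genes are less certain than the others. MRPS31, which has 1 of the largest decreases of the group (log2 fold change -0.27), was not called (edgeR, adjusted p = 0.0799).

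Across the 78 genes in this comparison, which share their libraries and are not independent replicates, the log2 fold change had a Spearman correlation of 0.188 with the mean level, 0.0116 with GC content and 0.0553 with the length of the longest transcript. The median length was 1722 bases for the 78 genes and 3519 bases for all genes tested, and the median GC content was 47.7% and 48.8%.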
